A study of Mus musculus with 3 samples.

Results

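Stromal cells that expressed *Sox9*, the transcription factor that commits mesenchymal cells to cartilage, but no gene of the main cartilage matrix were examined in day 5 ectopic masses. The cells were chosen on measured values. A cell was taken when it had 200 to 6000 genes, at most 5% of mitochondrial UMIs (unique molecular identifiers, each 1 counted molecule), at least 1% of its UMIs from *Col1a1*, *Col1a2*, *Col3a1*, *Dcn* and *Lum* together, 0 UMIs of the macrophage gene *C1qa*, at least 1 UMI of *Sox9*, and 0 UMIs of *Acan*, *Col2a1* and *Pi16*. In all, 828 cells met the rule, of 3952 stromal cells and 21503 cells that passed the gene and mitochondrial limits. Levels of these 10 genes are therefore given as a description only.

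All mice were female CD-1 mice of 6 to 8 weeks that carried a subcutaneous Matrigel implant for 5 days. The Matrigel of the Matrigel-only mice held no rhBMP2, and these mice received no drug. The implants of the Vehicle and Palo mice held rhBMP2, recombinant human bone morphogenetic protein, under which cartilage and then bone form at the site. The Vehicle mice were dosed by mouth with corn oil/DMSO and the Palo mice with 4 mg/kg of palovarotene, an agonist of retinoic acid receptor gamma. Vehicle differs from Matrigel-only in both rhBMP2 and the dosing, and cells freed by dispase from the masses of a group made up 1 library, so the differences were not tested against replicate spread.

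During endochondral bone formation mesenchymal cells first gather, switch on *Sox9* and only then make aggrecan (*Acan*) and type II collagen (*Col2a1*). *Sox9* is also found in tendon, perichondrium and some fibroblasts, so its presence alone does not make a cell a chondrocyte. BMP ligands signal through SMAD proteins to raise *Id* genes and skeletal transcription factors, whereas retinoic acid receptor agonists restrain cartilage formation.

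Sequencing gave 44252421 UMIs over 9249 barcodes for Matrigel-only, 46317250 over 6065 for Vehicle and 46901673 over 7905 for Palo. The rule took 298 Matrigel-only, 240 Vehicle and 290 Palo cells, which held 3509499, 4356707 and 4291904 UMIs. Their median depth was 10604, 18015 and 13912 UMIs per cell. Libraries shared 19 barcodes (Matrigel-only and Vehicle), 21 (Matrigel-only and Palo) and 11 (Vehicle and Palo), but 0 barcodes of chosen cells. Levels are given as CPM, the UMIs of a gene summed over the chosen cells of a library and scaled to the same total in each library, with exact Poisson 95% intervals. These, like the exact binomial intervals of shares, cover counting error only. Ratios of CPM were taken between libraries, not between genes, and genes were ranked by CPM to name the most abundant of a list.

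The name of the cells was checked against markers. All 16 genes of a mesenchymal list (*Sparc*, *Prrx1*, *Pdgfra* and others) were detected in each library, with summed levels of 42555 CPM in Matrigel-only, 45121 CPM in Vehicle and 43390 CPM in Palo, against 1566, 2283 and 2014 CPM in *C1qa*-positive, non-stromal cells. *Sparc* alone gave 13659, 16767 and 15866 CPM of these sums. Single members did move: 5 of 16 were at least 2-fold lower in Vehicle than in Matrigel-only and 4 than in Palo, with 0 higher (all genes 5.85% and 4.27% lower). *Thy1* was at 719, 139 and 528 CPM. The level of *Tnc* (tenascin C, a matrix protein of condensing mesenchyme) was 1360 CPM in Matrigel-only, 2519 CPM in Vehicle and 1218 CPM in Palo. After each cell was thinned to 5900 UMIs, *Tnc* was found in 60.6%, 97.1% and 76.7% of the chosen cells (65.1%, 97.5% and 85.5% unthinned), and in 3.42%, 11.6% and 3.72% of the *C1qa*-positive cells. The thinned shares of *C1qa*-positive cells cover only cells that reached 5900 UMIs, which were 430 of 4672, 451 of 2323 and 795 of 4309. All *C1qa*-positive cells together had median depths of 2916.5, 3604 and 3952 UMIs. *Ltbp2*, a protein of elastic microfibrils, was lower in Vehicle (521 CPM) than in Matrigel-only (783 CPM) and Palo (843 CPM). In *Sox9*-negative stromal cells *Tnc* was at 1059, 3161 and 1122 CPM and *Ltbp2* at 434, 699 and 523 CPM, so in Vehicle neither gene sets the chosen cells apart from that stroma. Defining endothelial (*Cdh5*, *Emcn*), Schwann cell (*Sox10*, *Foxd3*) and epithelial (*Krt5*, *Krt8*) genes were at 0 UMIs in the chosen cells of all 3 libraries, but other members of these lists were found. Of 10 endothelial markers, 7, 5 and 7 had a UMI in Matrigel-only, Vehicle and Palo, and they summed to 20.2, 18.4 and 12.1 CPM, with *Flt1* the most abundant in Matrigel-only and Vehicle and *Egfl7* in Palo. Of 9 Schwann cell markers, 6 had a UMI in each library, with sums of 23.9, 18.6 and 12.3 CPM, led by *Ngfr* in Matrigel-only and *S100b* in the others. Of 10 epithelial markers, 3, 5 and 2 had a UMI, with sums of 13.7, 10.1 and 19.6 CPM. No marker of these 3 lists reached 20 CPM. The description "without cartilage matrix" holds for *Acan* and *Col2a1* by rule, but other cartilage genes were measured in the Vehicle cells.

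The share of stromal cells that met the rule was 16.9% in Matrigel-only (298 of 1767, 95% CI 15.1 to 18.7), 19.9% in Vehicle (240 of 1205, 17.7 to 22.3) and 29.6% in Palo (290 of 980, 26.7 to 32.6). The order changed with depth. With each cell thinned to 5900 UMIs and chosen again, the shares were 15.8% (219 of 1390), 20.2% (239 of 1181) and 19.3% (184 of 952). The difference of Vehicle minus Palo was -9.67 percentage points at the deposited depth (CI -13.3 to -6.04), whereas the intervals of these libraries overlapped at equal depth (18.0 to 22.6 and 16.9 to 22.0).

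There were 298 Matrigel-only, 898 Vehicle and 293 Palo cells with *Sox9* and without *Pi16*, and 0, 658 and 3 of them were set aside for *Acan* or *Col2a1*. Stromal cells with *Acan* or *Col2a1* and without *Pi16* made up 60% of the Vehicle stroma (723 of 1205, CI 57.2 to 62.8). They were 0.408% of the Palo stroma (4 of 980) and 0.0566% of the Matrigel-only stroma (1 of 1767). *Pi16*-positive Vehicle cells, left out of this count, held *Acan* at 288 CPM and *Col2a1* at 603 CPM. Molecules from other cells must be weighed here. At 5900 UMIs, 7.60% of *C1qa*-positive Vehicle cells held *Col2a1*, 4.90% *Acan* and 2.83% *Sox9*. Whether these came from free RNA, doublets or the cells themselves was not tested. A Vehicle cell may thus fail or pass the rule by a stray molecule. The same 3 genes were in 0 of the 795 *C1qa*-positive Palo cells at that depth, which allows a share of up to 0.463% (exact binomial). *Pi16*-positive progenitors were 55.7%, 12.0% and 32.3% of the Matrigel-only, Vehicle and Palo stroma.

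**Figure D1:**
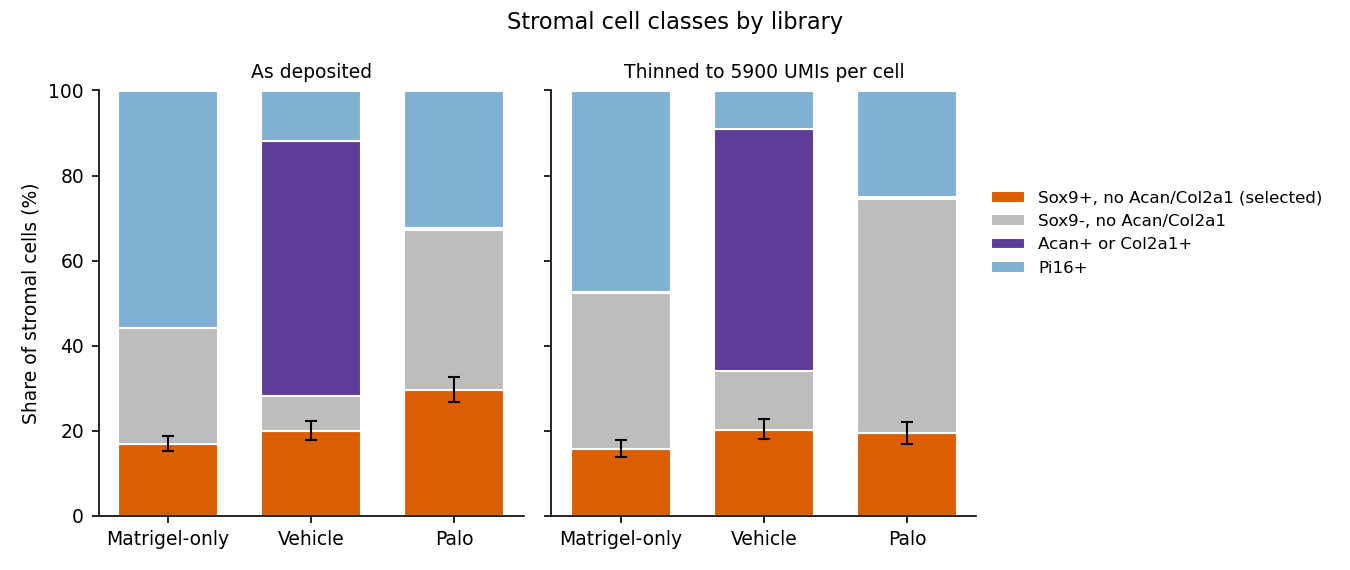
Stacked bars give the percent of stromal cells in 4 classes for each library, at the deposited depth (left) and with each cell thinned to 5900 UMIs (right). Error bars are exact binomial 95% intervals of the chosen class at the base of each bar, which spans 16.9% to 29.6% on the left and 15.8% to 20.2% on the right.

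The chosen cells of Vehicle were compared with those of Matrigel-only to see what accompanies rhBMP2, and with those of Palo to see what palovarotene alters. A gene counted as apart when the ratio of CPM, with 5 CPM added to each, was at least 2-fold, among genes with at least 20 CPM in 1 of the libraries compared. Log2 ratios include the 5 CPM, whereas larger folds given for single genes are plain ratios of CPM and are therefore higher. Of 6851 genes, 140 (2.04%) were at least 2-fold higher in Vehicle than in Matrigel-only and 401 (5.85%) at least 2-fold lower. Of 6749 genes, 205 (3.04%) were at least 2-fold higher in Vehicle than in Palo and 288 (4.27%) at least 2-fold lower. Between Palo and Matrigel-only 26 of 6798 genes (0.382%) were at least 2-fold higher in Palo and 89 (1.31%) at least 2-fold lower, and with cells thinned to 5900 UMIs these counts were 42 and 159. These shares of all genes are the background for the gene lists below. A count near them is not a result about the members of a list. The 3 comparisons share their libraries. Median log2 ratios over all genes were -0.05, -0.00 and -0.04, in the same order.

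*Ibsp* had the highest ratio in Vehicle over both other libraries. *Ibsp*, which encodes bone sialoprotein, a matrix protein of early osteoblasts and hypertrophic cartilage, had 0 UMIs in the 298 Matrigel-only and 290 Palo cells and 2203 UMIs, or 506 CPM, in the 240 Vehicle cells. Against a floor of 3 UMIs per library it was at least 592-fold higher than in Matrigel-only and at least 723-fold higher than in Palo. It was not spread evenly, since 65 of 240 Vehicle cells held a UMI, 34 held at least 10, and the 24 cells with the most held 90.4% of the molecules. At 5900 UMIs, *Ibsp* was in 21.6% of chosen Vehicle cells and 1.52% of *C1qa*-positive Vehicle cells. It was in 43.4% of Vehicle cells with *Acan* or *Col2a1* and without *Pi16*.

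*Sp7*, the zinc finger factor (osterix) required for osteoblast formation, was found in more Vehicle cells than *Ibsp*. Its level was 5.13 CPM in Matrigel-only, 105 CPM in Vehicle and 2.10 CPM in Palo, 20.5-fold and 50.1-fold higher in Vehicle. A UMI was found in 142 of 240 Vehicle cells but in 8 of 298 Matrigel-only and 8 of 290 Palo cells. At 5900 UMIs the shares were 37.8%, 1.87% and 1.35%, against 0.573% in *C1qa*-positive Vehicle cells. *Sp7* and *Runx2* were found together in 120 Vehicle cells and in 5 cells of each other library. *Runx2*, which acts before *Sp7* in the bone lineage, differed less, at 59.0 CPM in Matrigel-only, 107 CPM in Vehicle and 69.4 CPM in Palo.

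Of the 12 genes of an osteoblast list, 6 could be compared between Vehicle and Matrigel-only. Of these, 3 were at least 2-fold higher and 1 lower (all genes 2.04% and 5.85%), with a median log2 ratio of 1.83. Against Palo, 4 of 6 were at least 2-fold higher and 0 lower (all genes 3.04% and 4.27%), with a median of 2.82. The alkaline phosphatase gene *Alpl* was at 1.42 CPM, 38.8 CPM and 0.233 CPM in Matrigel-only, Vehicle and Palo. *Spp1* (osteopontin) was at 299 CPM, 561 CPM and 90.6 CPM, with 77.5% of the Vehicle molecules in the 24 cells with the most. *Tnfrsf11b*, the decoy receptor that restrains osteoclasts, was the member that was lower in Vehicle (25.9, 10.3 and 25.4 CPM). Of the 12 genes, 10 had a UMI in Vehicle, 9 in Palo and 7 in Matrigel-only. Among genes of mature osteoblasts and osteocytes, *Bglap* and *Dmp1* had a UMI in Vehicle, *Bglap* and *Phex* in Palo, and none of the 3 in Matrigel-only, while *Bglap2* was at 0 in every library.

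Several other genes with high Vehicle ratios encode secreted proteins. *Fmod* (fibromodulin, a collagen-binding proteoglycan) was at 70.9 CPM in Matrigel-only, 1341 CPM in Vehicle and 107 CPM in Palo, 18.9-fold and 12.5-fold higher in Vehicle. *Tnn* (tenascin N, found in bone-forming mesenchyme) was at 68.4, 787 and 107 CPM. At 5900 UMIs, *Fmod* was in 16.7%, 90.2% and 26.6% of cells (18.8%, 94.2% and 33.8% unthinned), against 5.64% of *C1qa*-positive Vehicle cells, so most Vehicle cells held it. *Edil3*, which encodes an integrin-binding matrix protein, was at 6.27, 131 and 11.7 CPM, and *Klk4*, a secreted protease gene, had 0 UMIs in Matrigel-only and Palo and 357 UMIs (81.9 CPM) in 55 Vehicle cells. The largest ratios also included *Ccl5* (0, 92.96 and 1.16 CPM), but 396 of its 405 Vehicle UMIs came from a single cell.

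**Figure D2:**
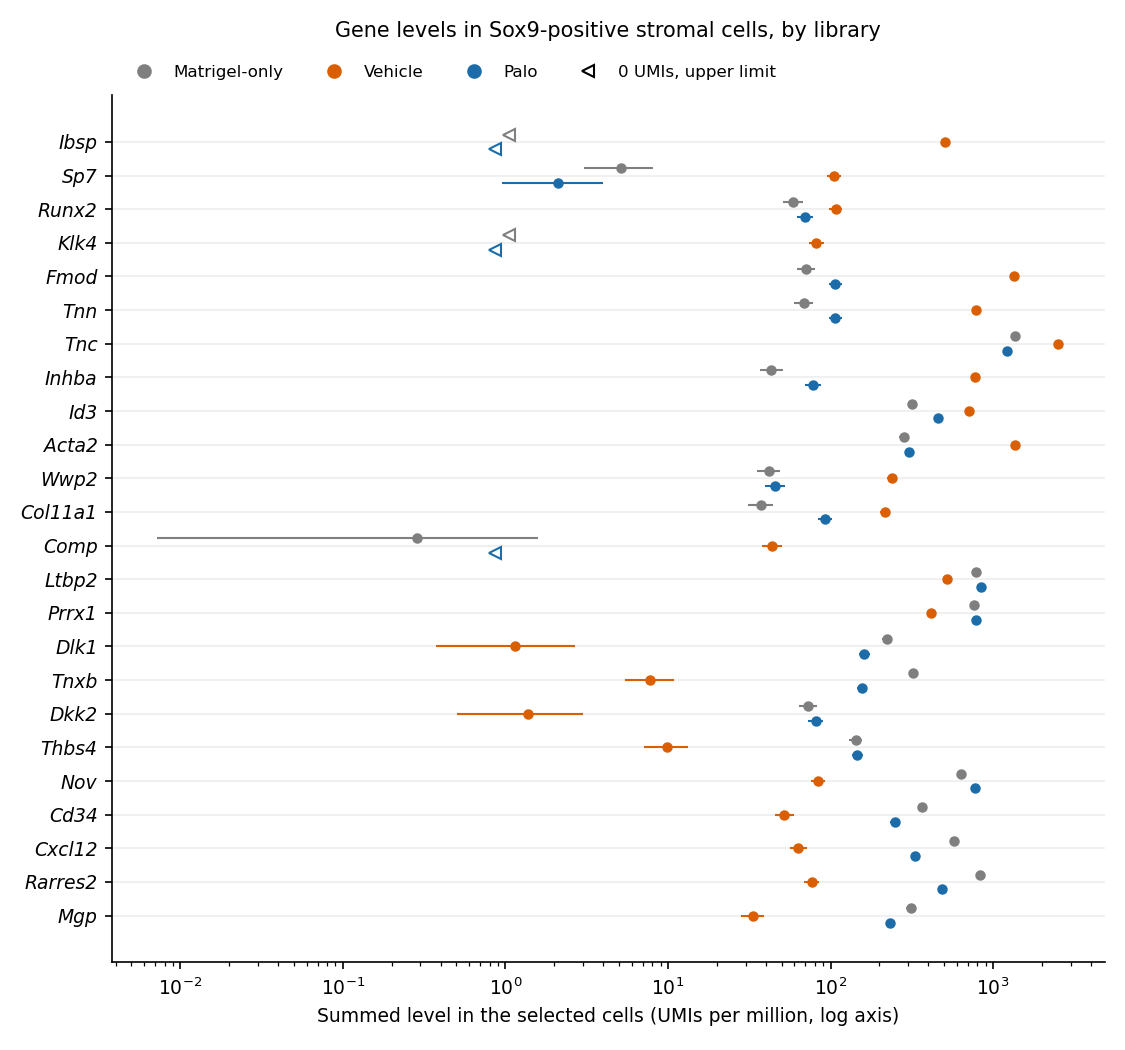
Points give the CPM (log axis) of 24 genes summed over the chosen cells of the Matrigel-only (grey), Vehicle (orange) and Palo (blue) libraries. Bars are exact Poisson 95% intervals, and open triangles mark the upper limit where a gene had 0 UMIs. Vehicle lies apart from both other libraries for most genes shown, as for *Inhba* at 771 CPM against 43.3 and 78.1 CPM.

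Promoter windows of the leading genes are shown because these genes lay furthest apart between libraries. The bases are from RefSeq on GRCm38.p6, up to 250 before the start of the gene on the plus strand, 5′ to 3′, without bases that GENCODE places in an exon. Capitals mark matches to any of 5 motifs searched on both strands. RUNX factors, which drive bone formation, were searched as TGTGGT. The family of *Sox9* was searched by the letters ACAANG. For the SMAD proteins that act under BMP, the letters were GGCGCC. The half-site of the retinoic acid receptors was AGGTCA, and the box of the basal promoter was TATAAA.
Ibsp (chr5:104299037-104299170): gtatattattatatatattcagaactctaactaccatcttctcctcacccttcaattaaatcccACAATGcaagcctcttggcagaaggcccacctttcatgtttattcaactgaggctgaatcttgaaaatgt
Fmod (chr1:134037004-134037253): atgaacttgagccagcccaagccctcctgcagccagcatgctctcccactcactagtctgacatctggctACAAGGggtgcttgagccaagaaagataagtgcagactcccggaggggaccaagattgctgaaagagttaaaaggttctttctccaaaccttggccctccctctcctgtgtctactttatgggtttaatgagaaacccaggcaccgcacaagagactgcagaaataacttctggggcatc
Inhba (chr13:16011601-16011850): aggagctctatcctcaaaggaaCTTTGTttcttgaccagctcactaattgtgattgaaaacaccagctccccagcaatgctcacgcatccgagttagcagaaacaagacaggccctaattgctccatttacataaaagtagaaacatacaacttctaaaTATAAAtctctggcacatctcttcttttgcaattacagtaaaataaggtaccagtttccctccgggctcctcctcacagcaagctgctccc
Klk4 (chr7:43880910-43881159): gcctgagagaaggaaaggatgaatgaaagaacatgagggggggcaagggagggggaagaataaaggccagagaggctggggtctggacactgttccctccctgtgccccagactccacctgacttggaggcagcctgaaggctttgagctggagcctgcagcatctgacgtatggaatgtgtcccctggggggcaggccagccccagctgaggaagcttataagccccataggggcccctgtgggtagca
Dlk1 (chr12:109452573-109452822): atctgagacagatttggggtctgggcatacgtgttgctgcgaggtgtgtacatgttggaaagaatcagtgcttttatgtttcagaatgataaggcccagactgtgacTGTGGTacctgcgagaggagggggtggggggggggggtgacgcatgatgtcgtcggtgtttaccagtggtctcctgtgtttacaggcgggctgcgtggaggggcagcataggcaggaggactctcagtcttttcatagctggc
The first 4 genes were higher and *Dlk1* was lower in Vehicle than in both other libraries. ACAANG was found once each in *Ibsp*, *Fmod* and *Inhba* and not in *Klk4* or *Dlk1*, while 36.3% of 32851 promoters of 250 bases held it. TGTGGT was found in *Dlk1* (14.0% of all promoters) and TATAAA in *Inhba* (12.4%), and neither GGCGCC (9.59%) nor AGGTCA (14.0%) was found in the 5 windows. Of 4 further windows searched, ACAANG was in *Tnn*, which was higher in Vehicle, and in *Dkk2*, which was lower. AGGTCA was in that of *Tnxb*, also lower, TATAAA was in *Dkk2*, and no motif was in *Thbs4*. These are matches of letters, not binding sites, and the *Ibsp* window was shorter (134 bases), since GENCODE places the 116 bases next to the RefSeq start in an exon. *Sp7*, *Edil3* and *Ccl5* were not matched.

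*Inhba*, which encodes the subunit of activin A, was at 43.3 CPM in Matrigel-only (CI 36.7 to 50.8), 771 CPM in Vehicle (745 to 797) and 78.1 CPM in Palo (69.9 to 86.9). Vehicle was thus 17.8-fold above Matrigel-only and 9.87-fold above Palo. It was found in 61 of 298, 188 of 240 and 109 of 290 cells, and at 5900 UMIs in 13.8%, 71.3% and 24.5%, against 3.29% in *C1qa*-positive Vehicle cells. In Vehicle stromal cells with *Acan* or *Col2a1* and without *Pi16*, *Inhba* was at 623 CPM. Its high level in Vehicle was thus not limited to cells with *Acan* or *Col2a1*.

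Other genes of the TGF-beta and activin list lay on both sides. Of 22 genes, 21 were compared between Vehicle and Matrigel-only, 4 were at least 2-fold higher and 5 lower (all genes 2.04% and 5.85%), and the median log2 ratio was -0.32. Against Palo, 5 of 20 were higher and 3 lower (all genes 3.04% and 4.27%), with a median of -0.14. Higher in Vehicle were the ligand gene *Tgfb2* (38.8, 146 and 56.9 CPM in Matrigel-only, Vehicle and Palo), the TGF-beta target *Tgfbi* (176, 598 and 256 CPM) and *Fstl3*, an activin-binding inhibitor (26.8, 68.6 and 24.5 CPM). Lower were the receptor genes *Tgfbr2* (436, 117 and 375 CPM) and *Tgfbr3* (155, 32.8 and 105 CPM). *Inhba* and *Tgfb2* therefore lay on the opposite side of these receptor genes, while the ligand gene *Tgfb3* was highest in Palo (91.8, 130 and 171 CPM).

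Genes of a BMP target list, which also holds genes of secreted BMP antagonists, lay on both sides. *Sp7*, described above, is on this list and had the highest ratio of its compared members in Vehicle over both other libraries (log2 3.44 and 3.96). *Id3* was at 319 CPM in Matrigel-only, 715 CPM in Vehicle and 459 CPM in Palo, with Palo between the others and all 3 intervals separate. *Bambi*, a pseudoreceptor induced by BMP, had the same order (8.83, 48.0 and 18.4 CPM). *Id1* was nearly even at 78.6, 95.7 and 76.7 CPM. Of 25 BMP target genes, 15 were compared between Vehicle and Matrigel-only. Of these, 3 were at least 2-fold higher and 2 lower (all genes 2.04% and 5.85%), with a median log2 ratio of 0.27. Between Vehicle and Palo 14 were compared, with 2 higher and 2 lower (all genes 3.04% and 4.27%) and a median of 0.34. Members lower in Vehicle included genes of BMP antagonists. *Grem1* was at 47.9, 26.4 and 108 CPM and had the lowest ratio over Palo (log2 -1.84). *Chrdl1* had 99, 28 and 97 UMIs in Matrigel-only, Vehicle and Palo. Of 19 BMP ligand and receptor genes, 7 were compared, and none was 2-fold apart in any of the 3 comparisons (medians -0.30, -0.18 and -0.12). Of all genes, 2.04% were higher and 5.85% lower, then 3.04% and 4.27%, and 0.382% and 1.31%, in the same order. For 7 genes, none apart is near these shares. *Acvr1*, the type I receptor gene mutated in fibrodysplasia ossificans progressiva, was at 46.5, 89.7 and 53.8 CPM.

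Of 32 cartilage matrix genes other than *Acan* and *Col2a1*, 11 reached 20 CPM and were compared between Vehicle and Matrigel-only. Here 3 were at least 2-fold higher and 1 lower (all genes 2.04% and 5.85%), with a median log2 ratio of 0.61. Against Palo 5 of 11 were higher and 1 lower (all genes 3.04% and 4.27%), with a median of 0.53. *Col11a1*, a fibrillar collagen of cartilage, was at 37.3 CPM in Matrigel-only, 215 CPM in Vehicle and 92.5 CPM in Palo, so that all 3 intervals were separate. *Comp*, a pentameric matrix protein gene, had 1 UMI in Matrigel-only, 191 in Vehicle (43.8 CPM) and 0 in Palo, in 34 Vehicle cells, 1 of which held 67 of the UMIs. At 5900 UMIs it was in 8.02% of these cells and in 4.29% of *C1qa*-positive Vehicle cells, and the part of free RNA in this level was not tested. *Matn4* was at 5.13, 44.1 and 13.3 CPM. *Mgp*, the inhibitor of matrix calcification, was lower in Vehicle (311, 33.3 and 233 CPM). *Col9a1* was at 5.51 CPM and *Hapln1* at 1.38 CPM in Vehicle. Both were far higher in *Sox9*-positive Vehicle cells without *Pi16* that held 2 or more UMIs of *Acan* and *Col2a1* (440 and 243 CPM).

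Among 30 Sox and chondrogenic transcription factors, *Wwp2*, a ubiquitin ligase gene that is a *Sox9* target in cartilage, stood out at 41.9 CPM, 238 CPM and 45.4 CPM. *Sox5* and *Sox6*, the partners of *Sox9* in cartilage, were low: *Sox5* was at 10.3, 24.1 and 10.0 CPM, and *Sox6* at 0, 4.13 and 0 CPM. *Zbtb20*, highest of the list in Matrigel-only, was lower in Vehicle (496, 187 and 361 CPM), as was *Barx2* (86.1, 14.0 and 45.2 CPM). For the list, 1 of 14 compared genes was at least 2-fold higher in Vehicle than in Matrigel-only and 3 lower (all genes 2.04% and 5.85%), and the median log2 ratio was 0.21. Against Palo, 3 of 14 were higher and 2 lower (all genes 3.04% and 4.27%), with a median of -0.03.

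Contractile genes were higher in Vehicle. Of 12 such genes, 10 were compared, and 6 were at least 2-fold higher than in Matrigel-only and 5 than in Palo (all genes 2.04% and 3.04%), with 0 lower and median log2 ratios of 1.52 and 1.04. *Acta2* (smooth muscle actin) was at 282 CPM in Matrigel-only, 1358 CPM in Vehicle and 304 CPM in Palo. *Tpm2*, a tropomyosin gene, was at 276, 773 and 297 CPM, and *Actg2* at 4.27, 64.5 and 7.69 CPM. The 11 pericyte and smooth muscle markers, which include *Acta2* and *Tagln*, summed to 482, 1912 and 675 CPM, with *Acta2* the most abundant in Matrigel-only and Vehicle and *Tagln* in Palo, and the part of such cells was not tested. All 11 had a UMI in Vehicle and 10 in each other library, where *Myh11*, of mature smooth muscle, was at 0. Of those compared, 4 of 5 were at least 2-fold higher in Vehicle than in Matrigel-only and 3 of 4 than in Palo (all genes 2.04% and 3.04%), with 0 lower and medians of 1.92 and 1.74. These included *Cnn1* (calponin, at 2.28, 22.5 and 1.86 CPM) and *Des* (desmin, at 2.28, 30.3 and 7.69 CPM), whereas the pericyte gene *Rgs5* was at 1.14, 0.230 and 0.466 CPM. *Acta2* was higher in Vehicle cells of this kind than in those with 2 or more UMIs of *Acan* and *Col2a1* (460 CPM).

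Of 16 condensation and adhesion genes, 1 was at least 2-fold higher and 1 lower in Vehicle than in Matrigel-only (all genes 2.04% and 5.85%). Against Palo 2 were higher and 1 lower (all genes 3.04% and 4.27%), and the medians were 0.28 and 0.27. *Sdc3* (syndecan 3, a heparan sulfate proteoglycan of precartilage condensations) was at 77.8, 346 and 74.8 CPM. *Cd44*, the hyaluronan receptor, was lower in Vehicle (625, 244 and 738 CPM). *Fn1*, the most abundant member, was at 7474, 8867 and 6333 CPM, and *Ncam1* at 297, 374 and 347 CPM.

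Genes of fibroblast progenitors were lower in Vehicle. Of 19 genes of this list, 17 were compared, and 14 were at least 2-fold lower than in Matrigel-only and 12 than in Palo (all genes 5.85% and 4.27%), with 1 higher in each and median log2 ratios of -1.62 and -1.27. *Cd34* was at 366 CPM in Matrigel-only, 52.1 CPM in Vehicle and 248 CPM in Palo. *Clec3b* (tetranectin) was at 180, 16.1 and 103 CPM, *Tnxb* (tenascin X) at 321, 7.80 and 156 CPM, and *Dpp4* at 36.2, 1.61 and 52.0 CPM. The member that was higher in Vehicle was *Pcolce2*, which enhances procollagen processing (25.1, 128 and 12.8 CPM). *Cd34* was found in 64.6%, 14.9% and 55.4% of cells at 5900 UMIs (73.8%, 26.7% and 70.7% unthinned), against 2.31%, 1.38% and 1.41% of *C1qa*-positive cells, so fewer Vehicle cells held it at equal depth.

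*Dlk1*, a Notch-like ligand that holds back adipocyte differentiation, had the lowest Vehicle ratio in both comparisons. It was at 223 CPM in Matrigel-only (95 of 298 cells), 1.15 CPM in Vehicle (4 of 240 cells) and 162 CPM in Palo (93 of 290 cells), with log2 ratios of -5.21 and -4.76. *Dkk2*, an extracellular modulator of Wnt signalling, was at 72.7, 1.38 and 81.1 CPM. *Thbs4* (thrombospondin 4, abundant in tendon) was at 143, 9.87 and 146 CPM, and *Il1rl1*, the receptor for interleukin 33, at 48.2, 5.05 and 69.0 CPM. In these 4 genes Matrigel-only and Palo differed by less than 2-fold. *Nov* (CCN3) was at 638, 84.0 and 769 CPM.

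IGF genes were mostly lower in Vehicle, while FGF and PDGF genes lay on both sides. Of 11 IGF genes, 4 of 9 compared were at least 2-fold lower than in Matrigel-only and 5 of 10 than in Palo (all genes 5.85% and 4.27%), with 0 higher and medians of -0.83 and -1.09. *Igf1* was at 198, 51.4 and 173 CPM and *Igfbp5* at 180, 16.8 and 212 CPM. In the FGF and PDGF list, 5 of 12 genes were lower and 0 higher than in Matrigel-only (all genes 5.85% and 2.04%), with a median of -0.84. Against Palo 5 of 11 were lower and 1 higher (all genes 4.27% and 3.04%), with a median of -0.33. The lower genes included feedback targets of FGF signalling, *Dusp6* (39.3, 8.26 and 36.1 CPM) and *Spry2* (43.3, 8.03 and 29.1 CPM), together with the receptor gene *Pdgfra* (256, 97.1 and 204 CPM). The ligand genes *Pdgfa* (47.6, 69.1 and 31.2 CPM) and *Pdgfc* (50.4, 95.3 and 61.3 CPM) were instead highest in Vehicle.

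Several abundant chemokine genes were lowest in Vehicle. *Cxcl12*, which retains progenitors through CXCR4, was at 575 CPM in Matrigel-only, 63.4 CPM in Vehicle and 330 CPM in Palo, and *Cxcl14* at 334, 33.7 and 131 CPM. *Ccl2*, which attracts monocytes, was at 673, 162 and 478 CPM. Of 20 chemokine and cytokine genes, 7 of 14 compared were at least 2-fold lower in Vehicle than in Matrigel-only and 2 higher (all genes 5.85% and 2.04%), with a median log2 ratio of -0.92. Against Palo 7 of 15 were lower and 2 higher (all genes 4.27% and 3.04%), with a median of -0.14. The higher genes were *Ccl5*, which 1 cell decided, and *Ptgs2* (cyclooxygenase 2), at 66.4, 160 and 31.0 CPM.

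Since palovarotene is a retinoid agonist, retinoid genes were listed. None of the 11 compared was 2-fold apart between Palo and Matrigel-only, and the median log2 ratio was -0.32 (all genes -0.04). Of all genes, 0.382% were higher and 1.31% lower there, so for 11 genes this count is near the share of all genes. In Vehicle over Palo 1 of 10 was at least 2-fold higher and 1 lower (all genes 3.04% and 4.27%), with a median of 0.19. In Vehicle over Matrigel-only 1 of 12 was higher and 2 lower (all genes 2.04% and 5.85%), with a median of -0.19. *Cyp26b1*, an enzyme that degrades retinoic acid and is often induced by it, was at 110 CPM in Matrigel-only, 66.6 CPM in Vehicle and 72.9 CPM in Palo. *Rarg*, the receptor gene that palovarotene targets, was at 29.9, 48.7 and 29.4 CPM, and *Rarb*, a classical target, at 2.00, 1.38 and 2.33 CPM. *Rarres2* (chemerin) was at 831, 76.7 and 484 CPM, and *Aldh1a3*, which makes retinoic acid, at 17.7, 83.6 and 18.2 CPM.

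**Figure D3:**
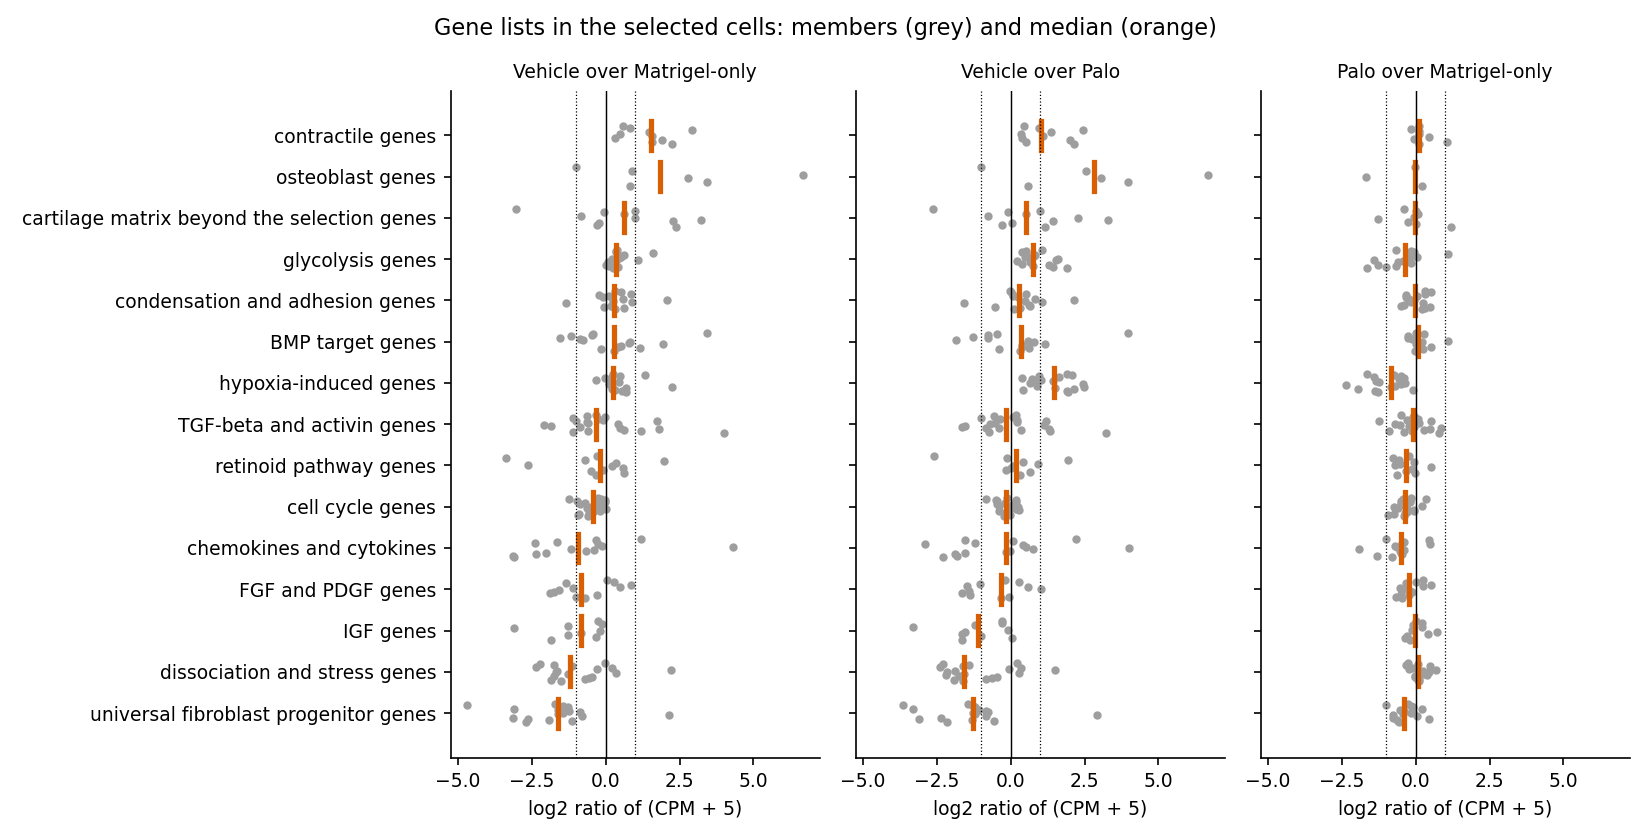
Grey points are the log2 ratios of CPM with 5 added for the compared members of 15 gene lists in the chosen cells, and orange bars are list medians, for each of the 3 comparisons. Dotted lines mark 2-fold. Contractile and osteoblast medians lie above 2-fold in Vehicle against both others, progenitor and stress medians below it, and in Palo over Matrigel-only the hypoxia median is at -0.84.

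Hypoxia-induced genes were lower in Palo than in both other libraries. Of 18 genes, 11 were at least 2-fold higher in Vehicle than in Palo and 0 lower (all genes 3.04% and 4.27%), with a median log2 ratio of 1.47. In contrast, 2 were higher than in Matrigel-only (all genes 2.04%), with a median of 0.23. Of 17 genes compared between Palo and Matrigel-only, 8 were at least 2-fold lower in Palo and 0 higher (all genes 1.31% and 0.382%), with a median of -0.84. This was not particular to the chosen cells. The 18 genes summed to 4297, 4328 and 2336 CPM in *Sox9*-negative stromal cells of Matrigel-only, Vehicle and Palo. In *C1qa*-positive cells they summed to 1189, 1941 and 819 CPM. *Egln3*, an oxygen-sensing hydroxylase gene, was at 73.5 CPM in Matrigel-only, 79.2 CPM in Vehicle and 10.5 CPM in Palo. *Vegfa* (vascular endothelial growth factor) was at 201, 325 and 80.4 CPM, *Ndrg1* at 262, 305 and 64.8 CPM and *Bnip3*, of mitophagy, at 233, 341 and 87.6 CPM. *Car9* (carbonic anhydrase 9) instead was high in Vehicle only (6.84, 51.6 and 5.13 CPM).

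Glycolysis genes were highest in Vehicle. All 17 were above 0 in Vehicle over Matrigel-only (median log2 ratio 0.36) and in Vehicle over Palo (median 0.76). By at least 2-fold, 2 and 6 of them were higher (all genes 2.04% and 3.04%). Between Palo and Matrigel-only 4 of 16 were at least 2-fold lower and 1 was higher (all genes 1.31% and 0.382%), and the median was -0.36. *Slc2a1*, the glucose transporter, was at 116, 140 and 33.8 CPM and *Pfkp* at 106, 231 and 77.4 CPM. The gene that was higher in Palo was *Eno1* (124, 385 and 269 CPM), whose reads may be shared with the near copy *Eno1b*, and whose log2 ratio in Palo over Matrigel-only was 1.09 and, at 5900 UMIs, 0.99, under 2-fold.

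**Figure D4:**
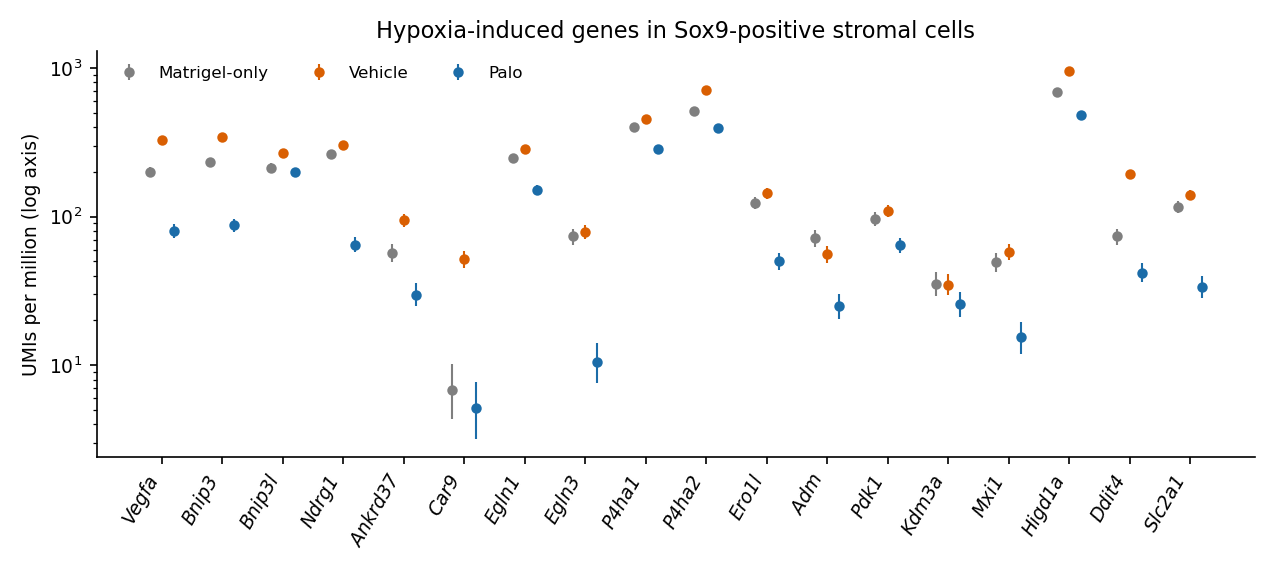
Points give the CPM (log axis) of 18 hypoxia-induced genes in the chosen cells of each library, with exact Poisson 95% intervals. Palo (blue) is the lowest library for each gene, as for *Egln3* at 10.5 CPM against 73.5 and 79.2 CPM.

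Other genes also set Palo apart from Matrigel-only. Higher in Palo were *Mmp9*, a gelatinase gene (43.9 CPM in Matrigel-only and 115 CPM in Palo), *Jag1*, a Notch ligand gene (42.5 and 104 CPM), *Grem1*, a secreted BMP antagonist gene (47.9 and 108 CPM), *Cyp51*, of cholesterol synthesis (17.1 and 55.0 CPM), and *Tagln* (155 and 325 CPM). Of these, *Grem1* and *Tagln* were under 2-fold with cells of under 0.05% *C1qa* UMIs kept (log2 0.79 and 0.85), and *Tagln* also at 5900 UMIs (0.97). *Mmp9*, *Jag1* and *Grem1* were lowest in Vehicle (14.2, 29.4 and 26.4 CPM), so that Vehicle and Palo lay on opposite sides of Matrigel-only. *Shox2*, a limb patterning factor gene, was at 36.8, 69.8 and 78.1 CPM.

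Genes lower in Palo included lipid genes, but few Matrigel-only cells held most of them. *Fabp4*, a fatty acid carrier of adipocytes, was at 183 CPM in Matrigel-only, 6.43 CPM in Vehicle and 1.16 CPM in Palo, yet 1 of 298 Matrigel-only cells held 47.0% of its molecules, and *Car3* (57.8, 0.230 and 0 CPM) was found in 4. *Lpl*, lipoprotein lipase, was at 529, 33.5 and 136 CPM and was found in 53.7%, 12.8% and 33.1% of cells at 5900 UMIs (62.8%, 22.1% and 46.6% unthinned), but also in 32.9%, 23.0% and 46.5% of *C1qa*-positive cells. The 7 adipocyte markers summed to 804 CPM in Matrigel-only, 56.9 CPM in Vehicle and 163 CPM in Palo, with *Lpl* the most abundant in each. *Adipoq* was at 14.8 CPM in Matrigel-only and *Plin1* at 7.98 CPM, and *Plin1* and *Cidec* were at 0 UMIs in both other libraries. The part of adipocyte RNA in these ratios was not tested. *Col4a1* and *Col4a2*, of basement membranes, were at 173 and 85.5 CPM in Matrigel-only, 1.61 and 1.38 CPM in Vehicle and 16.3 and 10.5 CPM in Palo, and *Col4a1* was in 112 Matrigel-only cells.

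Chosen cells also differed among themselves by their number of *Sox9* molecules. Exactly 1 UMI was held by 145 of 298 Matrigel-only cells (48.7%), 59 of 240 Vehicle cells (24.6%) and 142 of 290 Palo cells (49.0%), and at least 3 by 28.2%, 61.7% and 24.5%. The summed level was 190 CPM, 323 CPM and 150 CPM. In Vehicle, *Ibsp* was at 58.4 CPM in cells with 0 *Sox9* UMIs, 31.5 CPM with 1, 149 CPM with 2 and 733 CPM with 3 or more. *Inhba* was at 1357, 1153 and 1335 CPM with 0, 1 and 2 and at 534 CPM with 3 or more. Of its 3357 UMIs in the chosen Vehicle cells, 1 cell held 282 and the 24 cells with the most held 51.7%. The classes with 1 and 2 *Sox9* UMIs had 59 and 33 cells, so few cells may weigh heavily in these *Inhba* levels. *Cxcl12* was higher in cells with more *Sox9* in Matrigel-only (238, 430, 532 and 855 CPM). In Palo it was higher up to 2 *Sox9* UMIs and not beyond (193, 238, 426 and 408 CPM). Vehicle had no such order (68.8, 56.8, 109 and 56.8 CPM). *Cd34* was lower in cells with more *Sox9* in Matrigel-only (554, 461, 323 and 240 CPM) and in Palo (318, 270, 231 and 224 CPM). In Vehicle it had no such order (57.6, 59.9, 88.8 and 42.4 CPM). The classes with 1, 2 and 3 or more *Sox9* molecules had median depths of 15615, 16204 and 19254.5 UMIs in Vehicle, 13673, 14198 and 14368 UMIs in Palo and 10799, 10796 and 9898.5 UMIs in Matrigel-only, so more *Sox9* went with greater depth in Vehicle and hardly in Palo, and not in Matrigel-only.

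**Figure D5:**
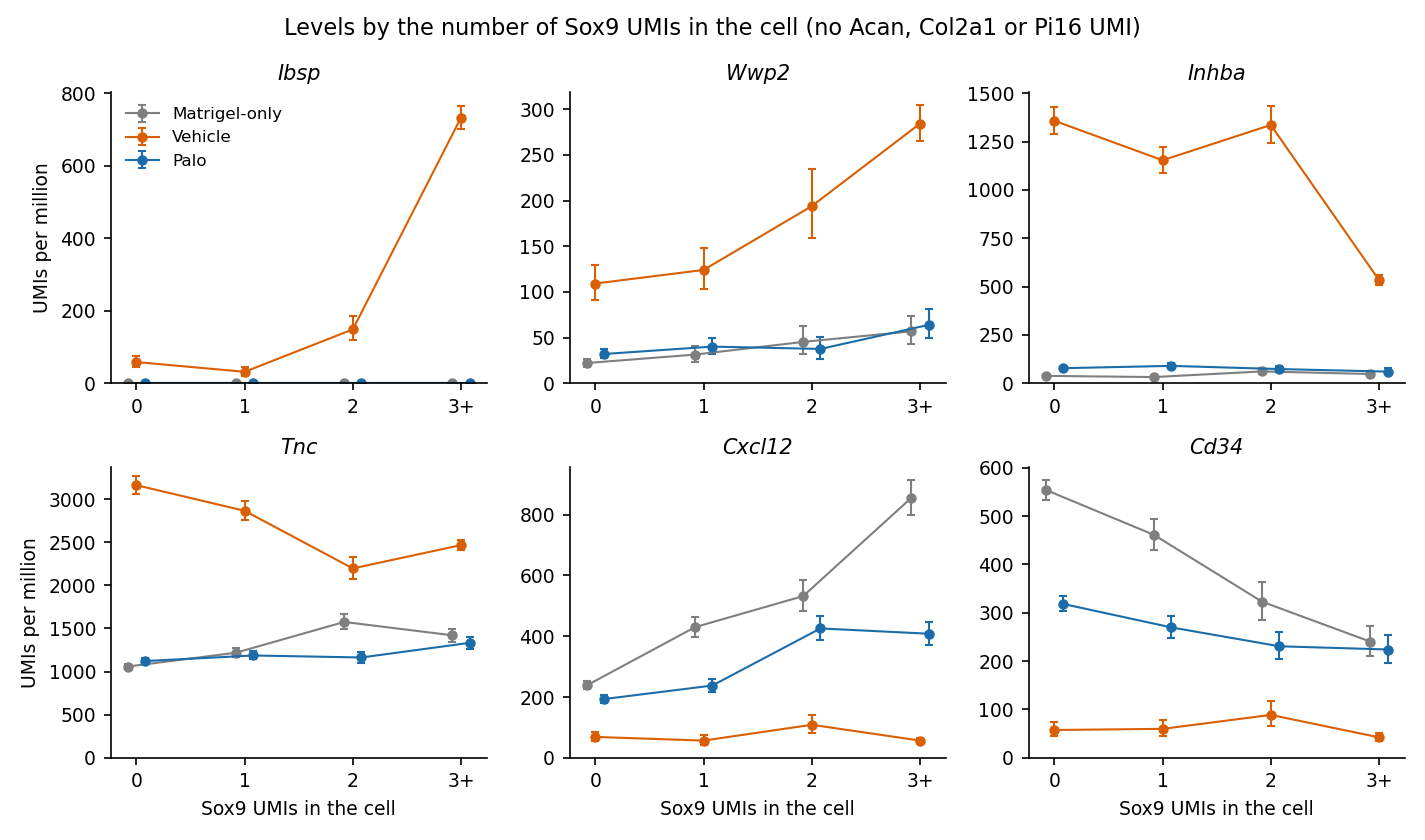
CPM of 6 genes (linear axes from 0) in stromal cells without *Acan*, *Col2a1* and *Pi16*, by the number of *Sox9* UMIs in the cell, for Matrigel-only (grey), Vehicle (orange) and Palo (blue), with exact Poisson 95% intervals. Cells with 0 lie outside the rule. *Ibsp* in Vehicle reaches 733 CPM at 3 or more UMIs, and *Inhba* is lowest there (534 CPM).

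Cells on the other side of the cartilage limit were compared by the same genes. Of the *Sox9*-positive Vehicle cells without *Pi16*, 67 held exactly 1 UMI of *Acan* and *Col2a1*. These 67 cells had *Tnn* at 959 CPM, *Fmod* at 1318 CPM, *Ibsp* at 406 CPM, *Wwp2* at 226 CPM and *Acta2* at 1565 CPM. The chosen Vehicle cells had these genes at 787, 1341, 506, 238 and 1358 CPM. *Inhba* was higher in the former (1214 and 771 CPM) and *Comp* lower (6.45 and 43.8 CPM). The 591 cells with 2 or more UMIs had *Col11a1* at 1656 CPM, *Wwp2* at 851 CPM and *Ltbp2* at 225 CPM, each further from the chosen cells.

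To see whether these differences belong to *Sox9*-positive cells, stromal cells without *Sox9*, *Acan*, *Col2a1* and *Pi16* (483 Matrigel-only, 98 Vehicle and 369 Palo cells) were compared in the same way. Of 114 genes at least 2-fold higher in Vehicle than in Matrigel-only that could be compared in both, 87 were also at least 2-fold higher in the *Sox9*-negative cells, and of 364 lower genes 256 were also lower. For Vehicle over Palo these counts were 119 of 170 and 194 of 271, and for Palo over Matrigel-only 15 of 25 and 48 of 76. Thus *Inhba* (38.1, 1357 and 77.9 CPM) and *Sp7* (0.608, 101 and 1.22 CPM) had the same order in *Sox9*-negative cells, while *Cxcl14* (144, 143 and 99.1 CPM) and *Csf1* (210, 244 and 223 CPM) were nearly even there and lower in Vehicle in the chosen cells. In contrast to *Sp7*, *Alpl* (0.203, 6.02 and 0.204 CPM) was lower in *Sox9*-negative than in chosen Vehicle cells. The share of all genes that were 2-fold apart in *Sox9*-negative cells is not given beside these counts, so the counts are a description only. Whether a gene's ratio differs between the cell classes was not tested, as there was 1 library per group.

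Markers of other cells and of handling moved with the libraries as well. The 15 macrophage markers other than *C1qa* summed to 400 CPM in Matrigel-only, 174 CPM in Vehicle and 593 CPM in Palo, against 36864, 37679 and 45048 CPM in *C1qa*-positive cells, and *Cd74* was the most abundant in each. All 15 had a UMI in every library. Lymphocyte markers summed to 1.99, 18.8 and 2.80 CPM (2, 5 and 4 of 10 with a UMI), and *Trac* was the most abundant in Vehicle, in 33 cells. Granulocyte and mast cell markers summed to 0.570, 31.7 and 1.40 CPM (2, 8 and 4 of 10), and 64 of the 67 Vehicle UMIs of *S100a9*, the most abundant there, came from 1 cell. The 19 dissociation and stress genes summed to 3109, 2334 and 3234 CPM, with *Hsp90aa1* the most abundant. Of these, 10 of 18 compared were at least 2-fold lower in Vehicle than in Matrigel-only and 11 of 19 than in Palo (all genes 5.85% and 4.27%), with 1 higher in each and medians of -1.20 and -1.57. *Fos*, an immediate early gene, was at 161, 53.3 and 173 CPM, *Dusp1* at 150, 28.7 and 160 CPM, and the exception *Hspb1* at 36.5, 187 and 62.4 CPM. The part of these genes in the differences between libraries was not tested.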

How the data were processed

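Single-cell libraries from 3 groups of mice (Matrigel-only, Vehicle and Palo, 1 library each) were analysed from the deposited UMI counts per gene and barcode, which the authors made with Cell Ranger 3.0.2 on mm10. Seurat 3 is also named in the submitters' processing notes. The 9249, 6065 and 7905 deposited barcodes still included cells outside the gene limits, which were removed here. Cells were chosen by the rule in the text, and their counts summed per library. The members, the gene lists and the comparisons were chosen with earlier results of these data known. With 1 library per group no test, standard error or p-value was computed. Ratios are log2 of CPM with 5 added, over genes of at least 20 CPM, and 2-fold was the limit. Named genes were, per comparison and direction, the top 10 by ratio among genes of at least 50 CPM in the higher library, without rule genes, mitochondrial and ribosomal protein genes and unnamed (Gm, Rik) genes, then *Tnc* and *Ltbp2*, and members of 39 gene lists that were highest in level or ratio.

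Doublets were scored with Scrublet in Scanpy 1.11.5. Its default threshold called 1, 1 and 0 cells, so it had not worked, and the top scores were marked instead at 0.8% per 1000 cells (674, 272 and 482 cells, of them 8, 4 and 5 chosen cells). They were kept and left out as an alternative. Thinning to 5900 UMIs, other limits, pseudocounts, filters and edgeR 4.0.16 TMM scaling were further alternatives. Python 3.11.15, NumPy 2.4.6, SciPy 1.17.1, pandas 2.3.3, Matplotlib 3.10.9 and R 4.3.3 were used, and the scripts were tested on simulated data. Counts do not tell apart genes that share reads. Tissue sections were not analysed here. One gene that the naming rule takes is not reported here.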

Additional observations from a re-analysis of the deposited data

Results flagged for a closer look

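*Saa3*, an acute phase gene, had opposite Vehicle over Matrigel-only log2 ratios in the 2 kinds of stromal cells: -2.14 in the chosen cells (131 CPM in Matrigel-only and 25.9 CPM in Vehicle) and 2.58 in the *Sox9*-negative cells (32.0 and 217 CPM). Few cells held it. In the chosen cells 461 UMIs came from 26 Matrigel-only cells and 113 from 14 Vehicle cells, 70 of them from 1 cell, and in the *Sox9*-negative cells 158 came from 18 and 252 from 7 cells, 111 of them from 1 cell. The difference between the cell classes was not tested.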

How the results depend on the processing

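No paired analysis was possible because each group had 1 library. Intervals cover counting error only, and animals cannot be told apart from treatment. With at least 2 *Sox9* UMIs required, the shares of stromal cells were 8.66%, 15.0% and 15.1% in Matrigel-only, Vehicle and Palo. With 1 UMI of *Acan* and *Col2a1* allowed, the Vehicle share was 25.5%, and at 5900 UMIs the Palo share was 19.3%. With a filter of 50 CPM, 79 genes were at least 2-fold higher and 244 lower in Vehicle than in Matrigel-only, 122 higher and 167 lower in Vehicle than in Palo, and 13 higher and 59 lower in Palo than in Matrigel-only, as fewer genes were compared. Palo over Matrigel-only gave 42 higher and 159 lower genes at 5900 UMIs, and 41 higher with at least 2 *Sox9* UMIs; the cause was not tested. Of 932 values of 86 list medians, 54 changed sign, all of medians under 2-fold. Of 137 values of the 13 medians past 2-fold, 123 stayed past it and 0 changed sign. Of 1023 values of the 93 named ratios past 2-fold, 1001 stayed past it and 0 changed sign. With at least 2 *Sox9* UMIs, *Tnc* in Vehicle over Palo was at 0.96, *Car3* was at -0.33 in Vehicle and -0.41 in Palo over Matrigel-only, and *Ccl5* was at 0 in Vehicle over both. At 5900 UMIs, *Col4a1* and *Col4a2* in Vehicle over Palo were at -0.47 and -0.88. *Col11a1* in Palo over Matrigel-only was at 0.95 at 5900 UMIs and at 0.72 with at least 2 *Sox9* UMIs.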

Other observations

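Of 17 collagen genes outside the rule, 3 were at least 2-fold higher and 6 lower in Vehicle than in Matrigel-only (all genes 2.04% and 5.85%). In Vehicle over Palo 0 of 15 compared were higher and 3 lower (all genes 3.04% and 4.27%). The counts were the same in Palo over Matrigel-only (all genes 0.382% and 1.31%). *Col12a1*, a collagen of tendon and periosteum, was at 765 CPM in Matrigel-only, 1710 CPM in Vehicle and 1219 CPM in Palo, whereas *Col14a1*, of fibroblasts, was at 863, 204 and 971 CPM and *Col15a1* at 384, 82.6 and 149 CPM. Of 20 matrix protease and inhibitor genes, 1 was at least 2-fold higher and 5 lower in Vehicle than in Matrigel-only (all genes 2.04% and 5.85%), and 1 higher and 3 lower in Vehicle than in Palo (all genes 3.04% and 4.27%). In Palo over Matrigel-only 1 of 18 was higher and 0 lower (all genes 0.382% and 1.31%). *Adamts5*, an aggrecan-cleaving protease gene, was at 334, 53.5 and 288 CPM. *Mmp13*, a collagenase gene of hypertrophic cartilage and bone, was at 0.570, 28.2 and 4.19 CPM.

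Most cell cycle genes were lower in Vehicle and in Palo than in Matrigel-only, by less than 2-fold for all but 1. Of 21 genes, 20 were below 0 in Vehicle over Matrigel-only, 1 of them by at least 2-fold (median log2 ratio -0.43, all genes -0.05), and 19 were below 0 in Palo over Matrigel-only, none by 2-fold (median -0.36, all genes -0.04). By 2-fold, 5.85% and 1.31% of all genes were lower in these comparisons. *Mki67* or *Top2a*, genes of dividing cells, were found in 65 of 298 Matrigel-only, 67 of 240 Vehicle and 80 of 290 Palo cells at unequal depth.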
